A study of Canis lupus familiaris with 6 samples.

Results

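The genes described here are those of the interferon response and of antigen presentation, measured by RNA-seq in the dog melanoma line CMM10. From 29822 annotated genes, those of 56 names listed by role were sought, and a gene was taken where its name in the files was equal to a listed one. A row was found for 42 of them. No row carried the names IFNAR1, IFNAR2, IRF7, IRF9, IFIH1, STING1, CMPK2, MX1, OASL, SAMD9, USP18, HERC5, TAP2 or PSMB8, and no gene was analysed here under these names. STING1 is the newer name of TMEM173, which had a row. The study compared 3 libraries from cells labelled hypoxia with 3 from cells labelled normoxia, all of the same line, with no genotype or other agent named. The labels state neither the oxygen level nor the time. Nothing in them says whether replicates came from separate cultures, and p-values therefore measure only the spread between these libraries, which may be technical.

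Interferons are secreted when a cell senses foreign nucleic acid. RIG-I-like receptors detect viral RNA and signal through MAVS, whereas cGAS detects DNA in the cytosol and signals through STING, and both routes lead to IRF3 and to interferon genes. Secreted type I interferon binds the receptor IFNAR, whose kinases JAK1 and TYK2 activate STAT2, which acts with IRF9 to switch on interferon-stimulated genes. Their products block viral replication and also raise the display of peptides on class I major histocompatibility (MHC) molecules, by which T cells recognise virus-infected and tumour cells.

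The libraries held 23196647 to 28804337 reads assigned to genes, of which 23.6% to 25.2% lay in introns. CA9, SLC2A1 and VEGFA, known targets of hypoxia-inducible factor, were higher under hypoxia by log2 fold changes of 3.77, 2.49 and 1.80. Of the melanocyte markers, SOX10 (63.3 TPM, a share of transcripts scaled by length, mean of 6 libraries), DCT (48.8 TPM) and MITF (24.0 TPM) were expressed. PMEL, MLANA and S100B were at 1.75, 1.06 and 0.876 TPM, and TYR and TYRP1 were below the count filter. The 7 measured leukocyte markers summed to 486.6 to 519.9 TPM under hypoxia and 494.4 to 522.9 TPM under normoxia, nearly all of it from the row named CD79A, for which it was not settled whether the model also holds reads of another gene. The other 6, among them PTPRC and CD3E, summed to 1.23 to 1.61 and 0.64 to 1.44 TPM. The 4 endothelial markers summed to 4.37 to 4.63 TPM under hypoxia and 3.04 to 3.53 TPM under normoxia. In bulk RNA, fewer cells of a type and less RNA per cell cannot be told apart. The part of other cell types in the results was not tested.

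Most of the measured genes were lower under hypoxia, the changes being small for many of them. Of the 42 genes, 39 passed a filter on low counts and were tested, and 22 of these (56.4%) were called lower and 5 (12.8%) higher, at a Benjamini-Hochberg adjusted p below 0.05 in edgeR's quasi-likelihood test. Among all 15397 genes tested, 24.4% were called lower and 24.5% higher, and the counts by role below are to be set beside these shares. The median log2 fold change of the 39 genes was -0.17, beside 0.00 for all genes. Hypoxia and normoxia libraries did not overlap in 27 of the 39 genes, beside 55.3% of all tested genes. The 27 included 21 of the 22 genes called lower and all 5 called higher. Of the 39 genes, 8 were called lower by at least 0.5 on the log2 scale, beside 4.10% of all tested genes. Only 1 of the 39 was called higher by as much, beside 11.3% of all tested genes. With library size as the only scaling, 23 of the genes were called lower and 4 higher, while the share of higher genes among all calls moved from 50.1% to 38.8%.

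**Figure D1:**
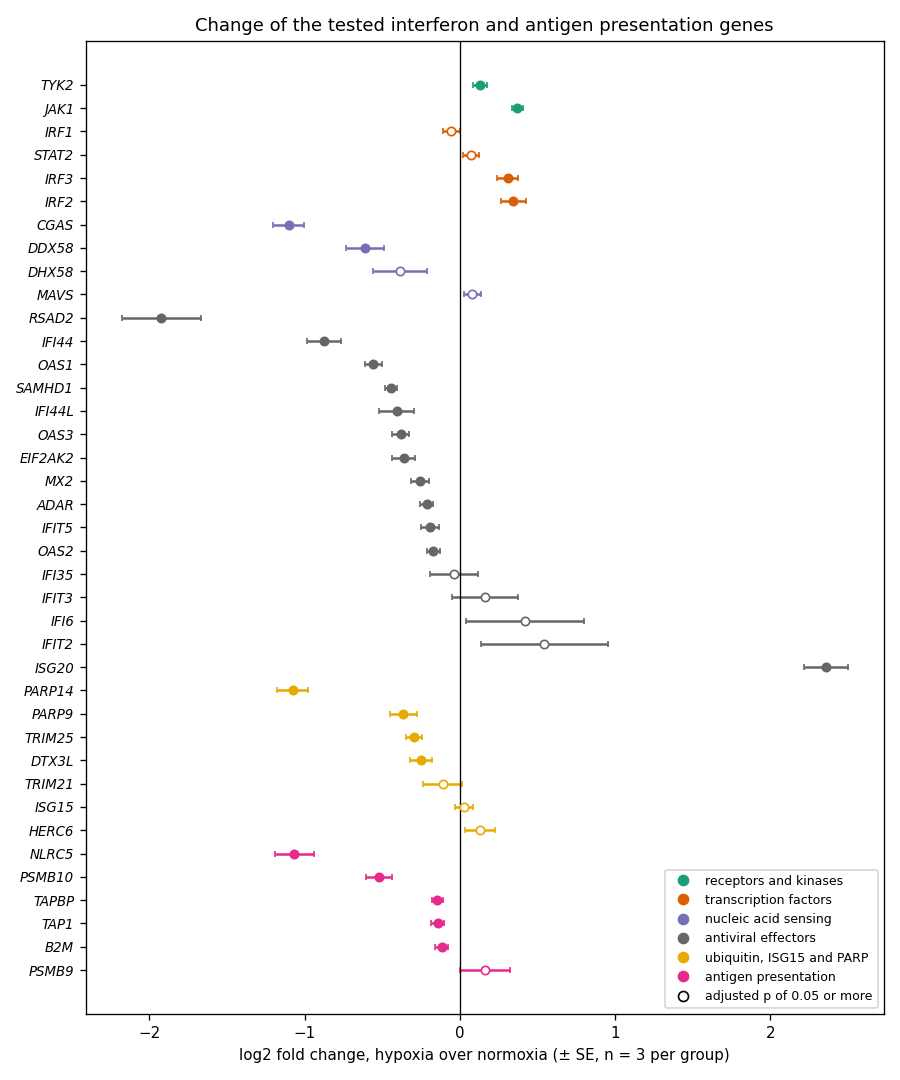
Log2 fold change of hypoxia over normoxia (x axis, ± SE, 3 libraries per group) for the 39 tested genes (y axis), coloured by role, with open circles for genes at an adjusted p of 0.05 or more in edgeR's test. The points run from -1.92 for RSAD2 to 2.36 for ISG20, and 22 of the filled points lie left of 0 and 5 right of it.

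Levels between genes were compared by the deposited TPM, which are per length of exon. The genes spanned from TAPBP (229 TPM, mean of 6 libraries), which holds class I molecules ready for peptide, and B2M (213 TPM), the light chain of class I molecules, down to XAF1 (0.0262 TPM). JAK1 (165 TPM) and the 2-5A synthetase OAS2 (95.9 TPM) were the next highest. TAPBP and B2M overlapped in their range over libraries, whereas B2M lay above JAK1, JAK1 above OAS2 and OAS2 above the fifth gene, SAMHD1 (67.1 TPM), in every library. From SAMHD1 down to IFI6 (0.570 TPM), each gene overlapped its neighbour in this order. IFIT1 (47 reads in 6 libraries), TMEM173 (15 reads) and XAF1 (5 reads) did not pass the count filter. The effectors IFIT2, IFIT3 and IFI6, which are induced strongly by interferon in many cells, were below 1 TPM on average.

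**Figure D2:**
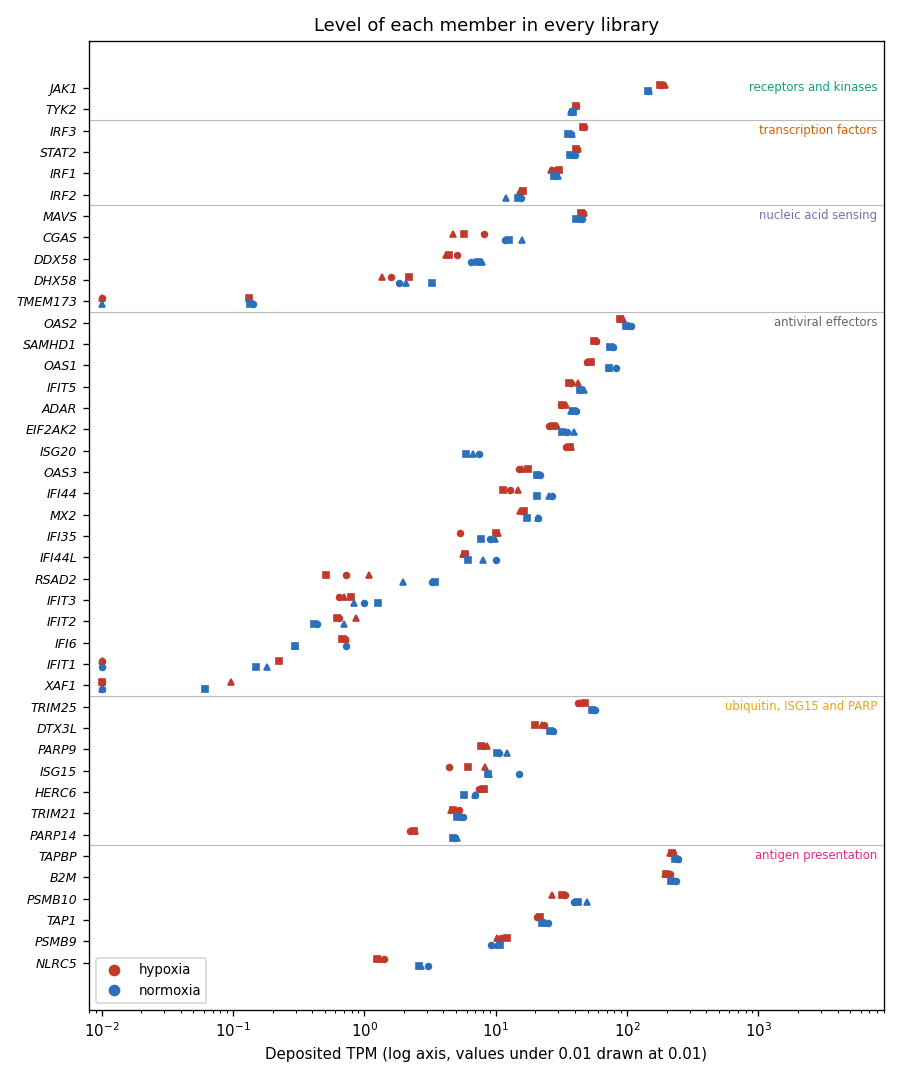
Deposited TPM (x axis, log scale) of the 42 genes with a row (y axis), grouped by role, in 3 hypoxia (red) and 3 normoxia (blue) libraries, with circle, square and triangle for replicates 1, 2 and 3 and values under 0.01 drawn at 0.01. Levels run from 229 TPM for TAPBP and 213 TPM for B2M (means) down to XAF1, with 5 reads over all libraries. ISG20 is the gene whose red points lie far to the right of its blue ones.

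Of 14 interferon ligand names sought, 4 had a row, and 3 of these had at most 1 read. IFNB1, the beta interferon, had 1 read in the 6 libraries, and the alpha interferon IFNA7 and the gamma interferon IFNG had 0. A count of 0 allows up to 3 reads, or 0.106 to 0.126 CPM (counts scaled to library size) depending on the library, which covers counting error only. IFNK, an interferon of keratinocytes, was the ligand that could be tested, with 118 reads (2.02 TPM). It was at 0.704 ± 0.222 against 0.752 ± 0.399 CPM (mean ± SD, n = 3) and did not pass (-0.11 ± 0.42). The other 10 ligand names on this list matched no row.

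At the receptor, the 2 kinases measured both rose. JAK1, on chromosome 5 (45251653 to 45408571) of CanFam3.1, was at 441, 430.4 and 462 CPM under hypoxia and 344, 348 and 339 CPM under normoxia, each set in the order of replicates 1, 2 and 3, as below. Every hypoxia library lay above every normoxia library (log2 fold change 0.37 ± 0.034, edgeR adjusted p = 9.24e-11, here and below mean difference ± SE of hypoxia over normoxia). TYK2, the partner kinase at the alpha chain of the receptor, was at 93.4, 92.4 and 91.1 CPM under hypoxia and 83.4, 87.3 and 82.3 CPM under normoxia. Its groups did not overlap either, although the difference was smaller (log2 fold change 0.13 ± 0.044, edgeR adjusted p = 0.0137). TYK2 did not pass without hypoxia replicate 1 (0.12, edgeR adjusted p = 0.0556), without normoxia replicate 1 (0.12, edgeR adjusted p = 0.0534) or without normoxia replicate 3 (0.11, edgeR adjusted p = 0.0591), nor with library size only (0.064, edgeR adjusted p = 0.228). The model of TYK2 overlaps that of PDE4A, which had more reads and did not pass the test (14195 reads for TYK2 and 28320 for PDE4A), and the libraries do not mark the strand.

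Among the transcription factors 2 of 4 were called higher and none lower, at an adjusted p below 0.05 in edgeR. IRF3, which carries the signal of the sensors to interferon genes, was at 27.9, 28.4 and 27.5 CPM under hypoxia and 22.9, 22.4 and 22.5 CPM under normoxia. The hypoxia libraries all lay above the normoxia ones (log2 fold change 0.31 ± 0.068, edgeR adjusted p = 0.000328), while intron reads alone gave no call (0.025 ± 0.17, edgeR adjusted p = 0.932). IRF2, which competes with IRF1 at interferon-response promoters, was also higher (log2 fold change 0.34 ± 0.08, edgeR adjusted p = 0.000541), with 43.8% of its reads in introns. From exon reads only, IRF2 did not pass (0.20 ± 0.11, edgeR adjusted p = 0.128). STAT2, the subunit of the complex that activates interferon-stimulated genes, was at 55.7, 52.3 and 53.8 CPM under hypoxia and 53.6, 50.2 and 50.1 CPM under normoxia. These groups overlapped, and the difference did not pass (log2 fold change 0.072 ± 0.054, edgeR adjusted p = 0.28), while exon reads alone gave a call (0.14 ± 0.056, edgeR adjusted p = 0.0379). IRF1, an activator of antigen presentation genes, was at 45.3 ± 1.58 against 47.0 ± 1.12 CPM (mean ± SD, n = 3) and did not pass (-0.054 ± 0.056).

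Of 4 tested sensing genes, 2 were called lower and none higher, with a median log2 fold change of -0.50. CGAS, the DNA sensor that makes the messenger cGAMP, on chromosome 12 (35512860 to 35528596), was at 10.5, 8.74 and 8.46 CPM under hypoxia and 18.1, 20.4 and 21.0 CPM under normoxia. No hypoxia library reached the lowest normoxia library, and the mean was 53.5% lower (log2 fold change -1.10 ± 0.10, edgeR adjusted p = 5.25e-11). The partner that cGAMP binds, STING, was close to absent from these libraries: TMEM173 had 0, 4 and 0 reads under hypoxia and 6, 2 and 3 under normoxia, and was not tested. DDX58, the RNA sensor RIG-I, was at 7.27, 6.13 and 6.16 CPM under hypoxia and 9.13, 10.1 and 10.7 CPM under normoxia. The groups did not overlap (log2 fold change -0.61 ± 0.12, edgeR adjusted p = 9.72e-05). DDX58 shares part of its model with ACO1, which had 36003 reads against 1314 for DDX58 and was lower by a log2 fold change of -0.14. From exon reads DDX58 changed by -0.62 ± 0.12, edgeR adjusted p = 5.95e-05. DHX58, a regulator of RIG-I, was at 3.76 ± 0.806 against 4.90 ± 0.605 CPM (mean ± SD, n = 3) and did not pass (log2 fold change -0.38 ± 0.17, edgeR adjusted p = 0.0693). It passed without hypoxia replicate 2 (-0.52, edgeR adjusted p = 0.0345), without normoxia replicate 3 (-0.47, edgeR adjusted p = 0.0446) and with library size only (-0.45, edgeR adjusted p = 0.0333). MAVS, the adaptor of these receptors on mitochondria, was at 53.7, 51.7 and 54.6 CPM under hypoxia and 52.9, 49.0 and 49.4 CPM under normoxia. Its groups overlapped and it did not pass (log2 fold change 0.081 ± 0.054, edgeR adjusted p = 0.221).

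**Figure D3:**
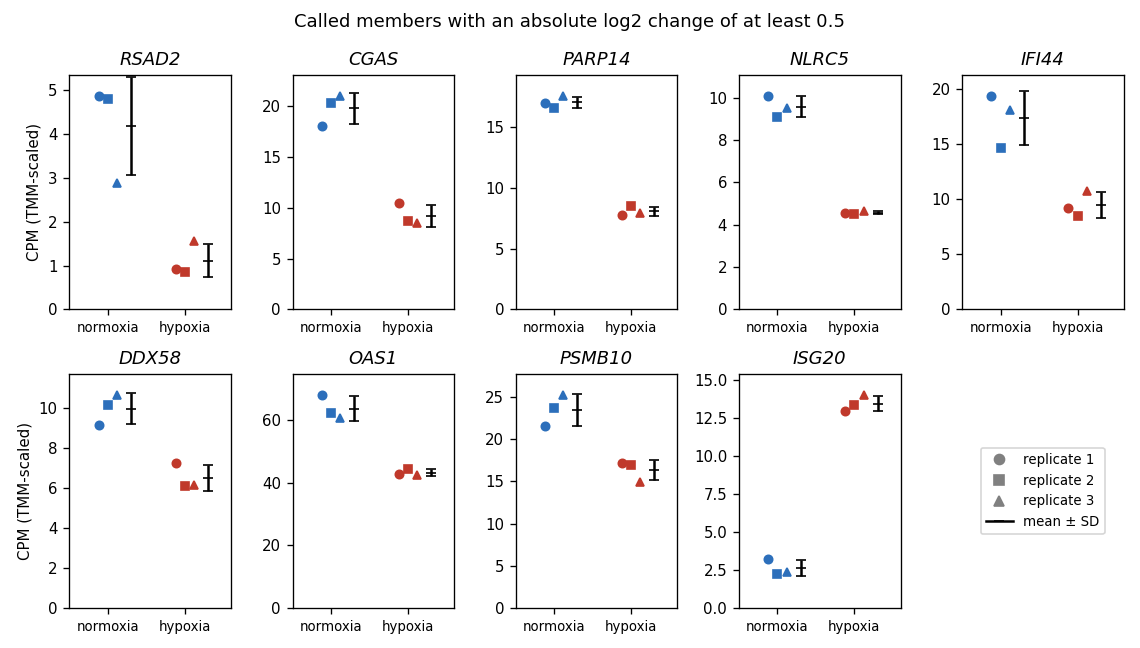
TMM-scaled CPM (y axis, from 0) of the 9 genes called with an absolute log2 fold change of at least 0.5, in 3 normoxia (blue) and 3 hypoxia (red) libraries, with black bars for the mean ± SD. In all 9 panels the libraries of the 2 conditions do not overlap, and ISG20 is the gene that is higher under hypoxia.

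Of 16 tested antiviral effectors, 11 were called lower and 1 higher, with a median of -0.23. RSAD2, or viperin, makes a chain terminator of viral RNA synthesis and lies on chromosome 17 (4487957 to 4507181). It was at 0.922, 0.860 and 1.55 CPM under hypoxia and 4.87, 4.80 and 2.89 CPM under normoxia, or 91 reads in all under hypoxia against 330 under normoxia. The 3 hypoxia libraries lay below the 3 normoxia libraries, of which replicate 3 was the lowest. The RSAD2 model contains a small nucleolar RNA, SNORA70_10, which had 0 reads in these libraries, and exon reads gave nearly the same difference (-1.89 ± 0.27, edgeR adjusted p = 4.72e-07) as all reads (-1.92 ± 0.25). IFI44, a cytoplasmic protein induced by interferon, was at 9.15, 8.49 and 10.7 CPM under hypoxia and 19.3, 14.6 and 18.0 CPM under normoxia. Its groups did not overlap (log2 fold change -0.87 ± 0.11, edgeR adjusted p = 7.74e-08). IFI44L, which lies 4440 bases from IFI44 on the same strand of chromosome 6, was lower by less (log2 fold change -0.41 ± 0.12, edgeR adjusted p = 0.00385). It did not pass without normoxia replicate 1 (-0.29, edgeR adjusted p = 0.0558).

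The OAS genes, whose enzymes make the 2-5A messenger that activates RNase L, lie side by side on chromosome 26 (10385447 to 10449009) in the order OAS1, OAS3, OAS2. All 3 were lower, with the largest change at OAS1. OAS1 was at 42.8, 44.4 and 42.4 CPM under hypoxia and 68.0, 62.2 and 60.5 CPM under normoxia, without overlap (log2 fold change -0.56 ± 0.055, edgeR adjusted p = 3.62e-10). OAS2 was at 121, 122 and 123 CPM under hypoxia and 145, 135 and 132 CPM under normoxia. Its hypoxia libraries lay close together and below all normoxia libraries (log2 fold change -0.17 ± 0.041, edgeR adjusted p = 0.000759). OAS3 lay between them in size of change (log2 fold change -0.38 ± 0.054, edgeR adjusted p = 4.13e-07). OAS2 had the highest level of the 3 per length, at 95.9 TPM, against 63.6 for OAS1 and 18.7 for OAS3.

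SAMHD1, which depletes the nucleotides that viruses need for DNA synthesis, was at 93.9, 94.0 and 93.2 CPM under hypoxia and 127, 125 and 130.0 CPM under normoxia. The hypoxia libraries were nearly equal to each other and all below the normoxia libraries (log2 fold change -0.44 ± 0.04, edgeR adjusted p = 5.96e-11). EIF2AK2, the kinase PKR that stops translation on sensing RNA, was lower (log2 fold change -0.36 ± 0.072, edgeR adjusted p = 8.45e-05). The model of EIF2AK2 overlaps an unnamed coding gene with 30847 reads. Introns held 21.8% of the reads of EIF2AK2, none of them counted as unique, and exon reads alone changed by -0.33 ± 0.077, edgeR adjusted p = 0.000534. The GTPase MX2 (-0.26 ± 0.057), the RNA-editing enzyme ADAR (-0.21 ± 0.044) and the RNA-binding protein IFIT5 (-0.19 ± 0.058) were also called lower. Of these, IFIT5 did not pass without hypoxia replicate 2 (-0.14, edgeR adjusted p = 0.0671). The MX2 model has 33 exons over 90761 bases, and MX1 had no row. Whether the MX2 row also holds reads of another gene was not tested.

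ISG20 was the 1 effector called higher. This exonuclease of single-stranded RNA, on chromosome 3 (51822888 to 51833659), was at 13.0, 13.4 and 14.0 CPM under hypoxia and 3.21, 2.25 and 2.39 CPM under normoxia. The lowest hypoxia library was above the highest normoxia library, with a mean 5.14 times as high (log2 fold change 2.36 ± 0.14, edgeR adjusted p = 1.76e-15). Introns held 18.2% of its reads, and exon and intron reads changed by 2.47 and 1.95. IFI6 (0.42), IFIT2 (0.54), IFIT3 (0.16) and IFI35 (-0.038) did not pass. The models of IFIT1 and IFIT3 share their start on chromosome 4 (84720), and 36.0% of IFIT3 reads were counted as unique in the files, with 62.0% in introns. From unique reads IFIT3 changed by -0.63, edgeR adjusted p = 0.102, so no direction was established for it.

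Of 7 tested genes for ISG15, ubiquitin and ADP-ribose transfer, 4 were called lower and none higher, with a median of -0.25. PARP14, an enzyme that adds ADP-ribose to proteins, on chromosome 33 (25763255 to 25798198), was at 7.80, 8.53 and 7.93 CPM under hypoxia and 17.0, 16.6 and 17.6 CPM under normoxia. Each hypoxia library was well below each normoxia library, and the mean was 52.6% lower (log2 fold change -1.08 ± 0.10, edgeR adjusted p = 8.04e-11). Its neighbours on chromosome 33, PARP9 and its ubiquitin ligase partner DTX3L, were lower by less. PARP9 was at 14.3 ± 0.202 against 18.4 ± 1.06 CPM (mean ± SD, n = 3), a change of -0.36 ± 0.086. DTX3L was at 24.4, 21.1 and 23.3 CPM under hypoxia and 28.6, 26.7 and 26.5 CPM under normoxia. Its groups did not overlap (log2 fold change -0.25 ± 0.072, edgeR adjusted p = 0.00449). The models of PARP9 and DTX3L, on opposite strands, overlap where both genes start. Of their reads, 99.7% and 99.9% were counted as unique, and these changed by -0.36 and -0.25, while PARP14 starts 79079 bases further on. TRIM25, a ubiquitin ligase that acts on RIG-I, was at 54.5, 59.1 and 55.9 CPM under hypoxia and 71.3, 68.6 and 68.0 CPM under normoxia. It did not overlap between conditions (log2 fold change -0.29 ± 0.05, edgeR adjusted p = 1.01e-05). HERC6 (0.13) and TRIM21 (-0.11), further ubiquitin ligases, did not pass.

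For ISG15, the ubiquitin-like protein, the result depended on which reads were counted. Its model spans 168378 bases for 627 bases of exon, and overlaps 9 other genes, among them AGRN with 24751 reads. Introns held 95.1% of the reads assigned to ISG15. All reads gave no difference that passed (log2 fold change 0.027 ± 0.058, edgeR adjusted p = 0.734). Exon reads numbered 34, 46 and 59 under hypoxia and 107, 65 and 55 under normoxia. They gave a fall of 0.77 on the log2 scale (edgeR adjusted p = 0.013), with 1 hypoxia library above the lowest normoxia library in raw reads. In deposited TPM, ISG15 was at 4.41, 6.14 and 8.31 under hypoxia and 15.1, 8.76 and 8.93 under normoxia, without overlap.

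Of 6 tested genes of the antigen presentation group, 5 were called lower and none higher, with a median of -0.14. NLRC5, the transactivator of class I genes, on chromosome 2 (59280390 to 59338931), was at 4.54, 4.51 and 4.65 CPM under hypoxia and 10.1, 9.09 and 9.52 CPM under normoxia. The hypoxia libraries were nearly equal, all below the normoxia libraries, and their mean was 52.2% lower (log2 fold change -1.07 ± 0.13, edgeR adjusted p = 2.18e-08). PSMB10, a catalytic subunit of the immunoproteasome that cuts peptides for display, was at 17.1, 16.9 and 14.9 CPM under hypoxia and 21.5, 23.6 and 25.2 CPM under normoxia. Its groups did not overlap (log2 fold change -0.52 ± 0.083, edgeR adjusted p = 3.16e-06). PSMB9, another such subunit, was at 4.71 ± 0.598 against 4.22 ± 0.322 CPM (mean ± SD, n = 3) and did not pass (log2 fold change 0.16 ± 0.16, edgeR adjusted p = 0.443).

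The peptide loading genes changed little. TAPBP was at 286, 278 and 272 CPM under hypoxia and 316, 298 and 309.8 CPM under normoxia, without overlap (log2 fold change -0.14 ± 0.035, edgeR adjusted p = 0.000943). TAP1, a subunit of the transporter that carries peptides into the endoplasmic reticulum, was lower by a similar amount (log2 fold change -0.14 ± 0.044, edgeR adjusted p = 0.00695) and did not pass without normoxia replicate 1 (-0.11, edgeR adjusted p = 0.0747). The model of TAP1, on the minus strand, spans 54178 bases with 41 exons and 8170 bases of exon. Its start lies 201 bases from the start of PSMB9, which is on the plus strand. TAP2 and PSMB8 had no row, and whether the TAP1 row also holds reads of other genes was not tested. B2M was at 141, 128 and 130.2 CPM under hypoxia and 149.5, 140.3 and 143 CPM under normoxia. The highest hypoxia library lay above the lowest normoxia library, so that B2M was the 1 called gene whose groups overlapped (log2 fold change -0.12 ± 0.042, edgeR adjusted p = 0.0203). B2M did not pass without hypoxia replicate 2 (-0.091, edgeR adjusted p = 0.115), hypoxia replicate 3 (-0.10, edgeR adjusted p = 0.0631) or normoxia replicate 1 (-0.090, edgeR adjusted p = 0.132).

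**Figure D4:**
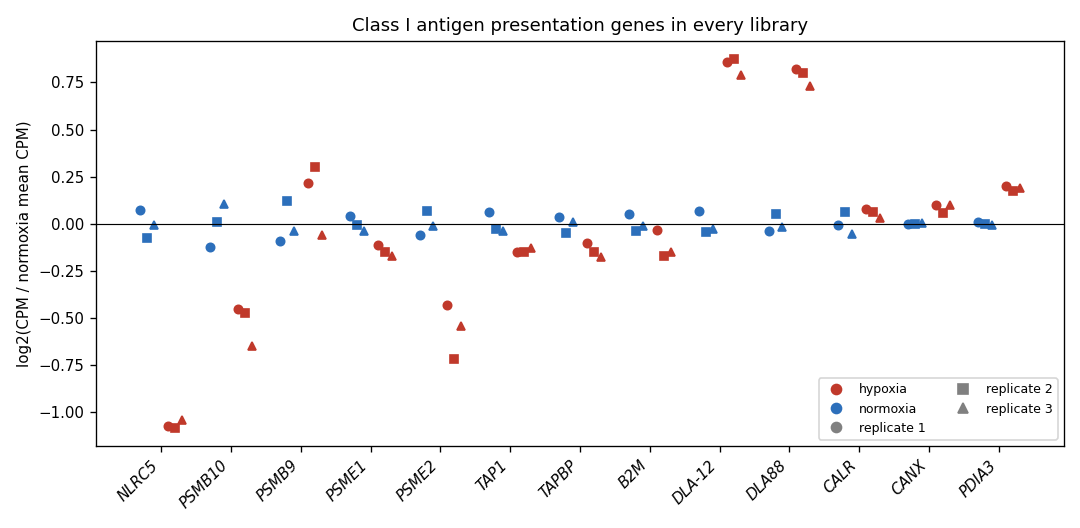
Log2 ratio of TMM-scaled CPM to the normoxia mean (y axis) for 13 genes of class I presentation (x axis) in 3 hypoxia (red) and 3 normoxia (blue) libraries, with circle, square and triangle for replicates 1, 2 and 3. The red points of NLRC5, PSMB10 and PSME2 lie lowest and those of DLA-12 and DLA88 highest, while TAP1, TAPBP and B2M lie just below 0.

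Further genes of the pathway were taken from lists of names by role. The counts of each list are to be set beside the 24.5% called higher and 24.4% called lower among all 15397 genes tested. Of 10 other class I genes tested, 4 were called higher and 3 lower, with a median of 0.01, beside 0.00 for all genes. The class I heavy chain genes DLA-12 and DLA88, which lie together on chromosome 12, had the largest changes. DLA-12 was at 364, 368 and 347 CPM under hypoxia and 210.3, 195 and 197 CPM under normoxia (log2 fold change 0.84 ± 0.037, edgeR adjusted p = 7.29e-19). DLA88 was at 212, 209 and 199 CPM under hypoxia and 117, 125 and 119 CPM under normoxia (log2 fold change 0.78 ± 0.039, edgeR adjusted p = 2.23e-17). All hypoxia libraries of both lay above all normoxia libraries. The models of these genes overlap, and 76.1% and 65.0% of their reads were counted as unique, so that which of the 2 changed is uncertain. From unique reads they changed by 0.86 and 0.79. The DLA-12 model has 26 exons over 54949 bases, and the DLA88 model has 20 exons over 129303 bases. Whether these 2 rows also hold reads of other genes was not tested. The proteasome activator subunits PSME1 (-0.14 ± 0.049), PSME2 (-0.56 ± 0.069) and PSME3 (-0.39 ± 0.042) were the 3 that fell. PSME1 did not pass without normoxia replicate 1 (-0.12, edgeR adjusted p = 0.079). PSME1, PSME2 and PSME3 were named after their values were seen, as were the chaperones of class I folding. Of those, PDIA3 (0.19 ± 0.032) and CANX (0.087 ± 0.031) were higher and CALR (0.056) did not pass. CANX did not pass without any of hypoxia replicates 1 and 3 or normoxia replicates 1 and 2 (edgeR adjusted p = 0.095, 0.0678, 0.0502 and 0.0886 in that order), nor with library size only (0.020, edgeR adjusted p = 0.595).

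Of 9 tested class II genes, 1 was called higher and 2 lower, with a median of 0.09, against 24.5% and 24.4% of all tested genes. DLA-DRA, the alpha chain of a class II molecule, was higher (log2 fold change 0.45 ± 0.10, edgeR adjusted p = 0.000204), at 3.24 TPM and with 79.9% of its reads in introns. RFXANK, a subunit of the factor that binds class II promoters, was lower in all reads (log2 fold change -0.24 ± 0.091, edgeR adjusted p = 0.0317) but not in exon reads (0.097 ± 0.11, edgeR adjusted p = 0.489). It also did not pass without hypoxia replicate 2 (-0.22, edgeR adjusted p = 0.0867), hypoxia replicate 3 (-0.18, edgeR adjusted p = 0.137) or normoxia replicate 1 (-0.15, edgeR adjusted p = 0.225). It was not called by DESeq2 either (adjusted p = 0.0813). The other was RFXAP, of the same factor (log2 fold change -0.15 ± 0.062, edgeR adjusted p = 0.0395), named after its value was seen. RFXAP was not called by DESeq2 (adjusted p = 0.0795) or in 4 of the 6 fits that left out a library, those without hypoxia replicate 2 (edgeR adjusted p = 0.101) or 3 (0.0899) or normoxia replicate 2 (0.084) or 3 (-0.12, edgeR adjusted p = 0.16). CIITA, the class II transactivator, did not pass (-0.023).

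Other receptors, kinases and feedback genes were called in both directions, 4 of 10 higher and 3 lower, with a median of 0.04. PTPN6, a phosphatase that restrains JAK kinases, was higher (log2 fold change 0.35 ± 0.12, edgeR adjusted p = 0.0136), though not without hypoxia replicate 1 (0.33, edgeR adjusted p = 0.0551) or normoxia replicate 1 (0.29, edgeR adjusted p = 0.0653). STAT3, a factor shared with cytokine receptors such as that of interleukin-6, was at 139.5, 141 and 156 CPM under hypoxia and 118, 115 and 112 CPM under normoxia. It was higher in every hypoxia library than in any normoxia library (log2 fold change 0.34 ± 0.043, edgeR adjusted p = 5.45e-08). JAK2, a kinase of the gamma interferon receptor, was lower (log2 fold change -0.30 ± 0.052, edgeR adjusted p = 1.22e-05), and was named with IFNGR1 after the values were seen. IFNGR1, a chain of that receptor, was called higher (log2 fold change 0.16 ± 0.062, edgeR adjusted p = 0.0318), a call that was lost in 4 of the 6 fits that left out a library: hypoxia replicate 1 (edgeR adjusted p = 0.0569), 2 (0.0744) or 3 (0.0645), or normoxia replicate 1 (0.144). It was not called by DESeq2 (adjusted p = 0.0791), nor by edgeR with library size only (0.211), without the filter (0.0542) or from exon reads (0.0531).

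Of 15 other sensing genes tested, 5 were called higher and 2 lower, with a median of 0.04. IRF5, a factor downstream of Toll-like receptors, was at 21.2 ± 0.671 against 13.9 ± 0.564 CPM (mean ± SD, n = 3; log2 fold change 0.61 ± 0.082, edgeR adjusted p = 2.17e-07). TRAF3, an adaptor of sensors, was higher as well (log2 fold change 0.33 ± 0.057, edgeR adjusted p = 1.32e-05). The kinases that phosphorylate IRF3 moved apart: TBK1 fell (-0.25 ± 0.044) and IKBKE rose (0.26 ± 0.038), both named after their values were seen.

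Of 23 other interferon-stimulated genes tested, 8 were called lower and 2 higher, with a median of -0.10. EPSTI1 was lower, at 1.14 ± 0.294 against 2.34 ± 0.501 CPM (mean ± SD, n = 3; log2 fold change -1.02 ± 0.28, edgeR adjusted p = 0.00254), on 275 reads. Exon reads gave no call for it (-0.97, edgeR adjusted p = 0.0516). SHFL, which blocks translation of viral RNA, was higher, at 22.6 ± 0.654 against 13.7 ± 0.381 CPM (log2 fold change 0.72 ± 0.081, edgeR adjusted p = 5.84e-09). The SHFL model overlaps that of ANGPTL6, and the EPSTI1 model overlaps that of FAM216B. From unique reads SHFL changed by 0.72 and EPSTI1 by -1.08. PNPT1, a mitochondrial RNA exonuclease (-0.55 ± 0.062), LGALS9, a galectin (-0.39 ± 0.069), PLSCR1, a phospholipid scramblase (-0.36 ± 0.065), and LAP3, an aminopeptidase (-0.35 ± 0.039), were among those that fell. These 4 were named after their values were seen. The chemokine genes CXCL10 and CCL5 had 25 and 25 reads and were below the filter, and CXCL11 had 0.

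Exon and intron reads were next tested apart, since intron reads can come from transcripts not yet spliced. From exon reads, 23 of the 39 genes were called lower and 6 higher, against 23.8% and 24.4% of all 13458 genes tested on exons. From intron reads, 14 of 36 were called lower and 3 higher, against 15.7% and 18.7% of 13858 genes. The 14 were called lower in all reads and in exon reads too. Of the 36 genes with both values, 23 were below 0 on both scales and 7 above 0 on both. Of the 9 genes with larger changes, DDX58 was not tested on introns. The exon and intron changes of the others were -1.89 and -2.03 for RSAD2, -1.07 and -1.11 for CGAS, -1.03 and -1.25 for PARP14, -1.04 and -1.09 for NLRC5, -0.86 and -0.89 for IFI44, -0.55 and -0.56 for OAS1, -0.47 and -0.67 for PSMB10, and 2.47 and 1.95 for ISG20. HERC6 had an exon change of 0.32 ± 0.11, edgeR adjusted p = 0.0142, and an intron change of -0.37 ± 0.18, edgeR adjusted p = 0.105. The difference between exon and intron changes was not tested for any gene.

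**Figure D5:**
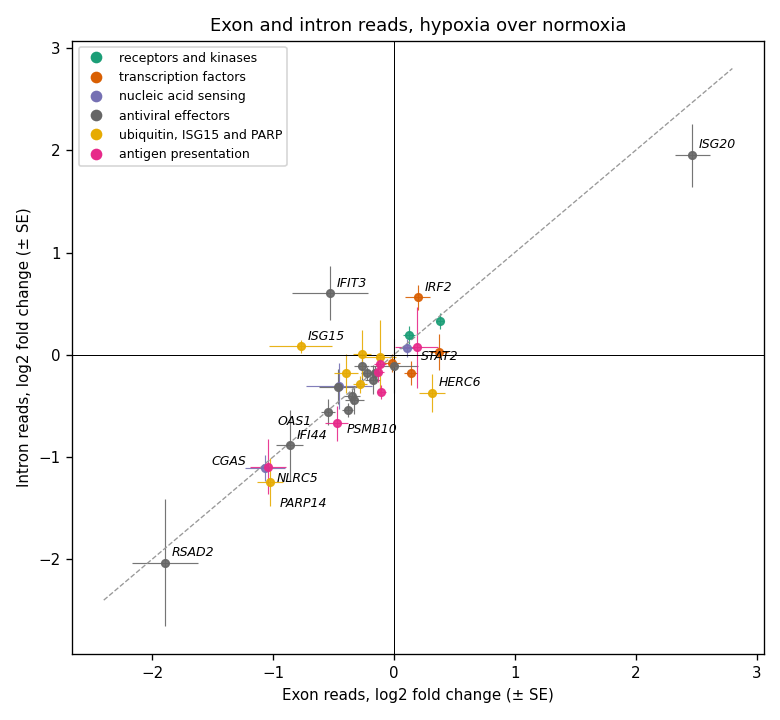
Log2 fold change of hypoxia over normoxia from exon reads (x axis) and from intron reads (y axis), each ± SE with 3 libraries per group, for the 36 genes tested on both, coloured by role, with a dashed line where both are equal. ISG20, at 2.47 from exons and 1.95 from introns, lies below the line at the upper right, RSAD2 lies at the lower left, and ISG15, IFIT3 and HERC6 are among the genes with opposite signs on the axes.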

How the data were processed

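The deposited counts, per the file headers, are reads per gene, split into exon and intron reads and into total and unique reads. For TYK2, DDX58 and EIF2AK2, whose models overlap another, unique reads were exon reads only, so that unique does not mean uniquely mapped alone, and the deposited TPM are per exon length and sum to the same total in each library. The deposited RPKM, per the file headers, were not used here. The build is CanFam3.1, per the submitters' processing notes. The aligner and counter were not given in the sources used here. By the labels' protocols, polyadenylated RNA was sequenced as paired reads from a kit that, to common knowledge, does not keep the strand. Depth was 23196647 to 28804337 gene reads, which limits precision for low genes. Of the tested genes of the set, 8 overlap another gene model: TYK2, DDX58, RSAD2, IFIT3, EIF2AK2, ISG15, PARP9 and DTX3L. Among the further genes named, the models of DLA-12, DLA88, CANX, JAK2, PTPN6, TBK1, EPSTI1 and SHFL are among those that overlap another.

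Total gene reads were filtered by edgeR's filterByExpr, scaled by TMM and compared by edgeR's quasi-likelihood test (robust, no covariates), with Benjamini-Hochberg adjustment over 15397 genes and a threshold of 0.05. CPM used TMM-scaled library sizes. Alternatives were DESeq2, other scalings, no filter, unique, exon or intron reads, a replicate block and each library left out. The test was checked on simulated counts. Genes and lists were chosen with earlier results of these data known. Values per library were given for genes called with an absolute log2 fold change of at least 0.5 and for the 2 highest genes of each role by TPM, and from each further list the 2 called genes of largest change with a mean of at least 1 CPM were named. Software was R 4.3.3, edgeR 4.0.16, DESeq2 1.42.0, data.table (1.17.8), Python 3.11.15 and matplotlib 3.10.9. No sequence was used here. Some genes of the lists are counted but not reported by name here.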

Additional observations from a re-analysis of the deposited data

How the results depend on the processing

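Of the 39 genes, 22 were called lower and 5 higher with RLE factors, with DESeq2, without the filter, from unique reads and with the replicate number as a block. The labels do not say whether numbers 1 to 3 pair libraries, and they name no shared batch. Deviations of same-numbered libraries correlated at -0.09 to -0.01 across genes, and those of other pairs at -0.06 to 0.09. With 3 libraries per group, these values cannot show whether libraries were paired. With 1 library left out, 19 to 23 genes were called lower and 4 to 5 higher. From intron reads only, where fewer genes were tested, 14 were called lower and 3 higher. Of 920 values under alternatives for single genes, 844 kept direction and side of the threshold, 50 lost and 5 gained a call, and 21 changed sign. From intron reads the sign changed for STAT2 (-0.18), HERC6 (-0.37), DTX3L (0.0058), TBK1 (0.14) and CIITA (0.17), and from exon reads for ISG15 (-0.77), IFIT3 (-0.52), IFI35 (0.0019) and RFXANK (0.097). IFIT3 changed sign from unique reads (-0.63), and ISG15 (-0.039) and CALR (-0.010) with library size only. Signs also changed for IFNK without hypoxia replicate 1 (0.12), normoxia replicate 1 (0.15) or normoxia replicate 2 (0.075), IFI35 without hypoxia replicate 1 (0.15), IFIT3 without hypoxia replicate 3 (-0.079) or normoxia replicate 3 (-0.017), ISG15 without normoxia replicate 2 (-0.024), and CIITA without hypoxia replicate 3 (0.074) or normoxia replicate 1 (0.049). With 1 library left out, values ran from -0.16 to 0.15 for IFI35, -0.079 to 0.29 for IFIT3, -0.024 to 0.071 for ISG15, -0.13 to 0.074 for CIITA and -0.48 to 0.15 for IFNK. None of these passed in either setting except DTX3L, TBK1 and RFXANK in all reads and ISG15 in exon reads. From intron reads, calls were also lost for TYK2, IRF3, IFI44L, IFIT5, MX2, PARP9, TAP1, B2M, IFNGR1, PTPN6, CANX, PSME1 and RFXAP. The cause was not tested.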

Other observations

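The row named CD79A, a subunit of the B cell receptor, stood out among the leukocyte markers, at 519, 511 and 485 TPM under hypoxia and 516, 522 and 493 TPM under normoxia. Whether its model also holds reads of another gene was not settled. It did not differ past the threshold between conditions (log2 fold change -0.0096 ± 0.037, edgeR adjusted p = 0.859), and PTPRC, the common leukocyte antigen, had 57 reads in all libraries together. VWF, a marker of endothelium, rose from a low level, to 1.67 TPM from 0.678 TPM on average (log2 fold change 1.44 ± 0.12, edgeR adjusted p = 7.38e-12), while PECAM1 had 25 reads. KDR, the endothelial marker with the highest level (2.58 TPM), did not pass (log2 fold change 0.11 ± 0.15, edgeR adjusted p = 0.579). CDH5, at 0.140 TPM, did not pass either (0.86 ± 0.40, edgeR adjusted p = 0.0734).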
